A study of Mus musculus with 2 samples.

Results

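The major histocompatibility complex (MHC) of the rat is named RT1, and the genes described here are those that build MHC molecules and load them with peptide. They are the rows of the expression table with a symbol that starts with RT1-, together with B2m, Cd74, Tap1, Tap2, Tapbp, Ciita, Nlrc5, Cd80, Cd86 and Cd40. The rule found 41 genes among 26607 rows, and none of the 41 shared its symbol with another row. By symbol, 21 were class I genes, 10 were class II genes (RT1-B, RT1-D and RT1-H) and 10 were accessory genes. The symbols set the membership and no expression value did.

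Class I molecules are made by nearly all nucleated cells and show CD8 T cells peptides cut from proteins of the cell itself. Each is a heavy chain paired with beta-2 microglobulin and filled in the endoplasmic reticulum, where the TAP transporter delivers the peptides and tapasin helps to load them. Class II molecules are pairs of an alpha and a beta chain that show CD4 T cells peptides from engulfed material. They travel with the invariant chain CD74 to endosomes, where DM exchanges a fragment of that chain for peptide. Resting microglia, the macrophages of the central nervous system, are known for little class II, which interferon-gamma raises through the regulator CIITA.

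The study sequenced poly(A) RNA of primary microglia in 2 libraries. By the labels, 1 culture had received a Per2-overexpression vector and the other a control vector. PER2 represses its own activators in the circadian clock. The labels give no animal age, strain, time after transfection or promoter of the vector, and they name the organism as mouse, whereas the gene identifiers and the genome build Rnor_6.0 are rat. Per2 itself went against the labels, with 0.927 FPKM in the library labelled Per2-overexpression vector and 6.90 FPKM in the library labelled control vector. Both libraries are therefore called by their labels below. FPKM are sequenced fragments divided by transcript length and by the mapped total of the library, so levels of different genes can be set side by side.

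Each group held 1 library, so no test between groups was possible, and every difference below describes 2 libraries with no replicate check. A log2 ratio is log2((FPKM + 1) in the overexpression-labelled library over (FPKM + 1) in the control-labelled library), which understates the difference of low genes. Rows that averaged 1 FPKM or more over both libraries were compared, and a log2 ratio beyond 1 or -1 (2-fold) counted as past the size limit. Of the 12369 rows compared, 8.12% were past 2-fold, 2.19% (271 rows) in the higher and 5.93% (733 rows) in the lower direction. Rescaling both libraries to TPM gave 213 higher and 1509 lower rows, and centring on the median ratio gave 557 higher and 492 lower. The median log2 ratio of all rows compared was -0.18, with quartiles at -0.50 and 0.17. Of these rows, 35.9% lay above 0 and 64.1% below, the shares against which counts of signs below are to be read. The median was -0.38 after rescaling to TPM and 0.00018 after centring. Class medians below are therefore also given relative to it.

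In the libraries as a whole, macrophage genes were abundant, and glial and stromal genes were present as well. The macrophage transcript Aif1 stood at 491 FPKM in the overexpression-labelled library and at 579 FPKM in the control-labelled library. Of the microglia-restricted genes, Cx3cr1 was listed at 0 in both libraries and P2ry12 stood at 0.0802 FPKM under the overexpression label and 0.650 FPKM under the control label. The 10 microglia and macrophage markers summed to 1406 FPKM in the overexpression-labelled library and 1712 FPKM in the control-labelled library. Aif1 and Cd68 (774 FPKM under the overexpression label and 923 FPKM under the control label) made up most of these sums. The 9 astrocyte markers summed to 195 FPKM under the overexpression label and 430 FPKM under the control label, and the 7 fibroblast markers to 429 FPKM under the overexpression label and 595 FPKM under the control label. Past 2-fold lower were 1 of 8 compared microglia and macrophage markers (Csf1r, -1.21), 4 of 9 astrocyte and 0 of 7 fibroblast markers. Of all rows, 5.93% were, and none of these markers was past 2-fold higher. Adjusted for transcript length as described below, the counts were 0, 2 and 0. All 3 of these cell types make class I molecules, and the part of the culture make-up in the values below was not tested. In bulk RNA, fewer cells of a type and less RNA per cell cannot be told apart.

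Of the 41 genes, 27 reached a mean of 1 FPKM. Of these, 2 (7.41%) were past 2-fold, both higher in the overexpression-labelled library, against 8.12% of all rows past 2-fold in either direction and 2.19% in the higher one. None (0 of 27) was past 2-fold lower, against 5.93% of all rows. Both higher genes, RT1-S2 and RT1-CE1, were class I heavy chains. RT1-S2 reached the mean of 1 FPKM through the overexpression-labelled library alone. The other 25 lay within 2-fold, 12 above and 13 below a log2 ratio of 0.

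**Figure D1:**
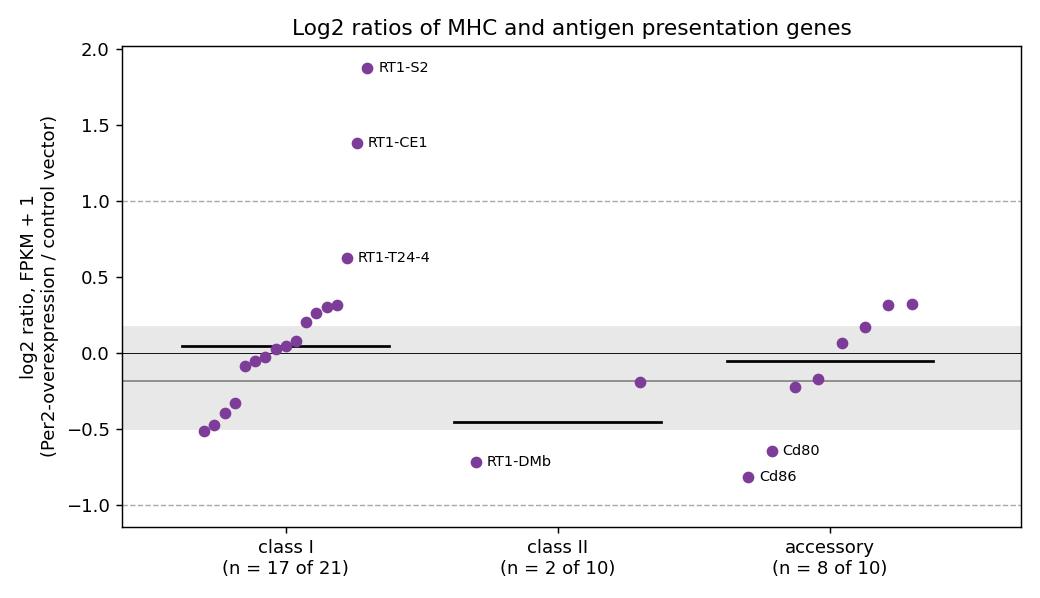
Log2 ratios on FPKM + 1 (vertical axis) of the class I, class II and accessory genes that averaged 1 FPKM or more, 1 point per gene. Black bars are class medians, the grey band spans the quartiles of all 12369 rows compared with their median as a grey line, and dashed lines mark 2-fold. RT1-S2 (1.88) and RT1-CE1 (1.38) lie above the upper dashed line, and no gene lies below the lower one.

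Class I values were spread over many loci, and their total hardly differed between the libraries. Summed over the 21 class I genes, the value was 803 FPKM in the overexpression-labelled library and 819 FPKM in the control-labelled library, a ratio of 0.981 and a log2 ratio of -0.03. The direction of so small a difference depended on the scaling, and the log2 ratio of the sum was 0.19 after centring. Of the 21 genes, 17 were compared, 10 with a log2 ratio above 0 and 7 below. Their median was 0.04, which is 0.23 above the median of all rows. After rescaling to TPM the median was -0.15, still 0.23 above that of all rows under that scaling. The quartiles of the 17 log2 ratios were at -0.09 and 0.30, beside -0.50 and 0.17 for all rows.

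RT1-A1 and RT1-A2 are the classical class I genes, those that present peptides to most CD8 T cells. RT1-A2 was the most abundant heavy chain, with 244 FPKM in the overexpression-labelled library and 321 FPKM in the control-labelled library (log2 ratio -0.40). RT1-A1 had 75.6 FPKM under the overexpression label and 62.8 FPKM under the control label (0.26), so the log2 ratios of the pair had opposite signs. RT1-A2 made up 30.4% of the class I sum in the overexpression-labelled library and 39.3% in the control-labelled library. Together the pair held 39.8% of it in the overexpression-labelled library and 46.9% in the control-labelled library. Without RT1-A2, a step chosen after its values were seen, the other 20 class I genes summed to 559 FPKM in the overexpression-labelled library and to 497 FPKM in the control-labelled library. The log2 ratio of that sum was 0.17, so the sign of the class I total rested on RT1-A2.

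The RT1-CE genes lie in a region of mostly nonclassical class I loci, and all 6 in the table were compared. RT1-CE1 was the only one past 2-fold, with 32.4 FPKM in the overexpression-labelled library and 11.8 FPKM in the control-labelled library (log2 ratio 1.38, 2.74-fold in the deposited values). Of all 12369 rows, 99 had a log2 ratio as high, RT1-CE1 included. RT1-CE10 had a log2 ratio of the other sign, with 16.6 FPKM in the overexpression-labelled library and 24.1 FPKM in the control-labelled library (-0.51). The most abundant of the group, RT1-CE5, had 112 FPKM under the overexpression label and 119 FPKM under the control label (-0.09), and RT1-CE4 had 90.6 FPKM under the overexpression label and 72.6 FPKM under the control label (0.31). RT1-CE7 (23.7 FPKM under the overexpression label and 24.2 FPKM under the control label) and RT1-CE3 (12.02 FPKM under the overexpression label and 11.4 FPKM under the control label) were nearly equal in both libraries. The 6 genes summed to 287 FPKM in the overexpression-labelled library and to 264 FPKM in the control-labelled library. The difference of RT1-CE1 was 20.6 FPKM, beside 23.95 FPKM for the sum of the group.

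The 13 genes of the RT1-M, RT1-N, RT1-S and RT1-T24 loci are further class I genes, most of them nonclassical. RT1-S2 had 3.38 FPKM in the overexpression-labelled library and 0.193 FPKM in the control-labelled library, a log2 ratio of 1.88, the highest of all members compared. Of all 12369 rows, 27 had a log2 ratio as high, RT1-S2 included. The deposited values differed 17.5-fold, but from a level near 0, and with a pseudocount of 5 the log2 ratio was 0.69, under the size limit. RT1-S3 had 61.6 FPKM in the overexpression-labelled library and 49.8 FPKM in the control-labelled library (0.30). The sum of both RT1-S genes, set up after their values were seen, was 64.9 FPKM in the overexpression-labelled library and 50.01 FPKM in the control-labelled library, which is 1.30-fold.

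RT1-T24-4 had 30.8 FPKM in the overexpression-labelled library and 19.7 FPKM in the control-labelled library (0.62), while RT1-T24-3 had 34.0 FPKM under the overexpression label and 29.4 FPKM under the control label (0.21) and RT1-T24-1 had 1.46 FPKM under the overexpression label and 2.42 FPKM under the control label (-0.48). RT1-N3 had 15.0 FPKM in the overexpression-labelled library and 19.1 FPKM in the control-labelled library (-0.33), and RT1-N2 had 27.7 FPKM under the overexpression label and 28.8 FPKM under the control label (-0.06). RT1-M3-1 is named for M3, which in mice presents N-formylated peptides of bacteria and mitochondria. It had 15.2 FPKM in the overexpression-labelled library and 14.7 FPKM in the control-labelled library (0.04), and RT1-M6-1 was equally close, with 6.65 FPKM under the overexpression label and 6.53 FPKM under the control label (0.02). The remaining 4 loci, RT1-M2, RT1-M4, RT1-M5 and RT1-M6-2, stayed under 0.2 FPKM in both libraries, RT1-M4 and RT1-M5 at 0.

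**Figure D2:**
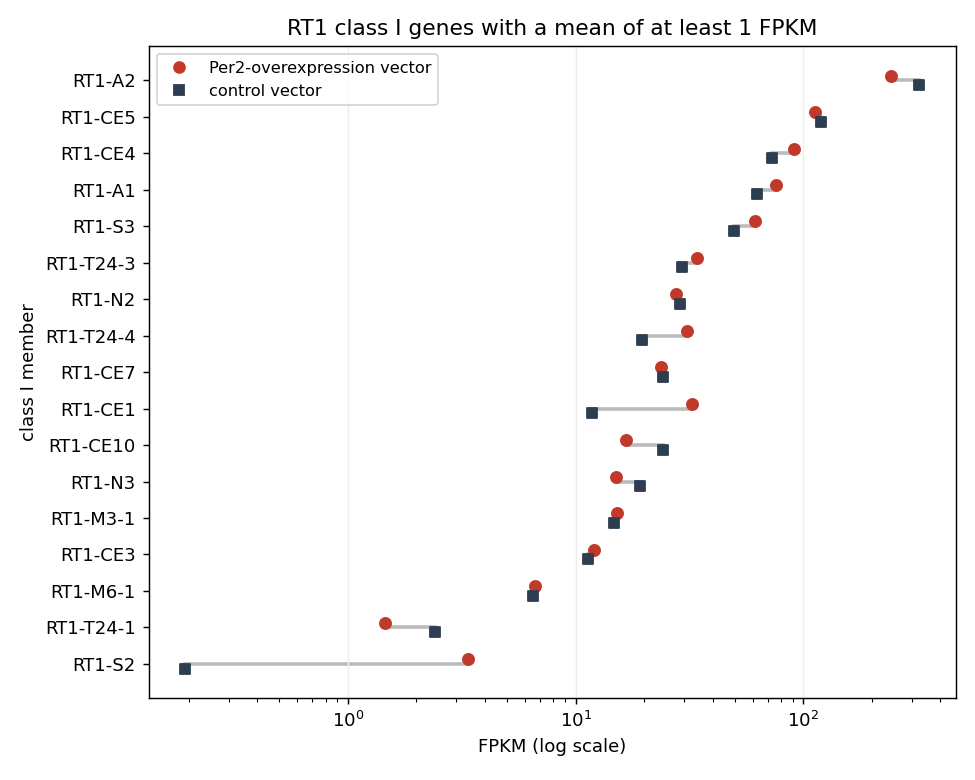
FPKM on a log axis of the 17 class I genes that averaged 1 FPKM or more, ordered by mean. Circles are the library labelled Per2-overexpression vector and squares the library labelled control vector, joined by a grey line per gene. RT1-A2, RT1-CE5, RT1-CE4, RT1-A1 and RT1-S3 are the most abundant in both libraries, and the longest lines are those of RT1-S2 (3.38 FPKM under the overexpression label and 0.193 FPKM under the control label) and RT1-CE1 (32.4 FPKM under the overexpression label and 11.8 FPKM under the control label).

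Reads shared between loci limit what single class I values mean. Class I heavy chain genes arose by repeated duplication and are closely alike in sequence, and the set of loci differs between rat strains. A read that matches several loci can be counted at any of them, and the sources used here do not say how such reads were treated. The opposite directions of RT1-A2 and RT1-A1, of RT1-CE1 and RT1-CE10 and of RT1-T24-4 and RT1-T24-1 are thus uncertain as statements about single genes. Sums over loci depend less on how reads were split. The part of shared reads in the RT1-CE1 and RT1-S2 differences was not tested, and sequences of the rat loci were not analysed here.

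The partners of class I in the endoplasmic reticulum differed by less than 2-fold. B2m, the light chain of every class I molecule, was among the abundant transcripts, with 3172 FPKM in the overexpression-labelled library and 2543 FPKM in the control-labelled library (log2 ratio 0.32). Its FPKM were 3.95 times the class I heavy chain sum in the overexpression-labelled library and 3.11 times in the control-labelled library. Transcript length bears on this value. The libraries differed with length across 10139 rows with a length (Spearman's rho -0.50 across genes), and the log2 ratio of B2m, a short transcript, was -0.15 with that trend removed.

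Tap1 and Tap2 together encode the TAP peptide transporter. Tap1 had 23.9 FPKM in the overexpression-labelled library and 22.8 FPKM in the control-labelled library (0.06), and Tap2 had 12.1 FPKM under the overexpression label and 14.2 FPKM under the control label (-0.22). Tap1 FPKM were thus 1.98 times those of Tap2 in the overexpression-labelled library and 1.60 times in the control-labelled library. Tapbp, which encodes tapasin, had 44.7 FPKM in the overexpression-labelled library and 39.6 FPKM in the control-labelled library (0.17). The signs of Tap1 (-0.13) and Tapbp (-0.03) were negative after rescaling to TPM, so their direction against 0 depended on the scaling. Both lay above the median of all rows, which was -0.18, and -0.38 after rescaling. With the length trend removed the values were 0.29 for Tap1, 0.39 for Tapbp and 0.07 for Tap2. Nlrc5, the transactivator of class I genes, was under a mean of 1 FPKM, with 0.318 FPKM in the overexpression-labelled library and 1.17 FPKM in the control-labelled library. Nlrc5 was thus 3.69-fold higher in the control-labelled library in deposited values, at a low level in both. Its matched mouse transcript was 7578 nucleotides, against 860 for B2m, and longer transcripts tended to have lower log2 ratios. Being under the filter, Nlrc5 got no length-adjusted value. A link between Nlrc5 and the class I values was not tested.

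Most class II chains were at or near 0 in both libraries. The 6 chains of the RT1-B, RT1-D and RT1-H molecules, which hold the peptide, summed to 0.465 FPKM in the overexpression-labelled library and to 0.832 FPKM in the control-labelled library. RT1-Ba and RT1-Bb are the alpha and beta chain of the rat counterpart of human HLA-DQ. RT1-Ba was listed at 0 in the overexpression-labelled library and at 0.234 FPKM in the control-labelled library, and RT1-Bb at 0 in both. RT1-Da and RT1-Db1 form the counterpart of HLA-DR. RT1-Da had 0.465 FPKM in the overexpression-labelled library and 0.224 FPKM in the control-labelled library, and RT1-Db1 was listed at 0 in the overexpression-labelled library and at 0.375 FPKM in the control-labelled library. RT1-Db2 and RT1-Ha were at 0 in both. Class II genes vary between strains, so a value of 0 covers only reads that were placed at these loci.

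DM, which edits the peptides of class II molecules, was the exception within class II. RT1-DMa had 41.2 FPKM in the overexpression-labelled library and 47.3 FPKM in the control-labelled library (log2 ratio -0.19), and RT1-DMb had 7.83 FPKM under the overexpression label and 13.6 FPKM under the control label (-0.72). Both were lower in the overexpression-labelled library, though neither reached 2-fold and RT1-DMa turned to 0.02 after centring. The alpha chain FPKM were 5.26 times those of the beta chain in the overexpression-labelled library and 3.49 times in the control-labelled library. The pair made up 98.9% of the class II sum in the overexpression-labelled library and 97.9% in the control-labelled library. DO, an inhibitor of DM, was scarcely listed, with RT1-DOa at 0 in both libraries and RT1-DOb at 0.0651 FPKM in the overexpression-labelled library and 0.462 FPKM in the control-labelled library.

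The class II partners were low as well. Cd74, the invariant chain, which class II-rich cells make in great excess, had 1.99 FPKM in the overexpression-labelled library and 2.36 FPKM in the control-labelled library (-0.17). RT1-DMa FPKM were 20.7 times those of Cd74 in the overexpression-labelled library and 20.0 times in the control-labelled library. Ciita, the master regulator of class II transcription, had 0.0906 FPKM in the overexpression-labelled library and 0.134 FPKM in the control-labelled library. Ifng, which encodes interferon-gamma, was listed at 0 in both libraries. Markers of other cells that carry class II were mostly low. Of 6 B cell markers in the table, 5 were at 0 in both libraries and Cd79b had 0.0398 FPKM in the overexpression-labelled library and 0.212 FPKM in the control-labelled library. The 10 dendritic cell markers summed to 7.22 FPKM in the overexpression-labelled library and 8.08 FPKM in the control-labelled library. Of these, 3 were at 0 in both libraries, Flt3 and Ccr7 stayed under 0.1 FPKM, and 3 were over the filter, with a median log2 ratio of -0.61. Batf3 had 4.92 FPKM under the overexpression label and 3.43 FPKM under the control label (0.42). Itgax had 1.30 FPKM under the overexpression label and 2.67 FPKM under the control label (-0.67), and Clec10a had 0.771 FPKM under the overexpression label and 1.69 FPKM under the control label (-0.61). Clec10a was over the filter through the control-labelled library alone.

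Set side by side, the classes differed far more in level than in ratio between the libraries. The class I sum was 16.2 times the class II sum in the overexpression-labelled library and 13.2 times in the control-labelled library. The class II sum was 49.6 FPKM in the overexpression-labelled library and 62.1 FPKM in the control-labelled library, a ratio of 0.798 and a log2 ratio of -0.32, against 0.981 for class I. The median log2 ratio of the 2 class II genes compared was -0.46, which is 0.27 below that of all rows, and 0.50 below the class I median. That difference between classes kept its sign under all 7 alternatives run, but it rests on RT1-DMa and RT1-DMb alone and has no replicate check. Rescaling to TPM and centring shift both classes nearly alike, and summing rows that share a symbol changes no member. Its sign under these settings was thus fixed in advance, and length adjustment was not run for RT1 genes.

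**Figure D3:**
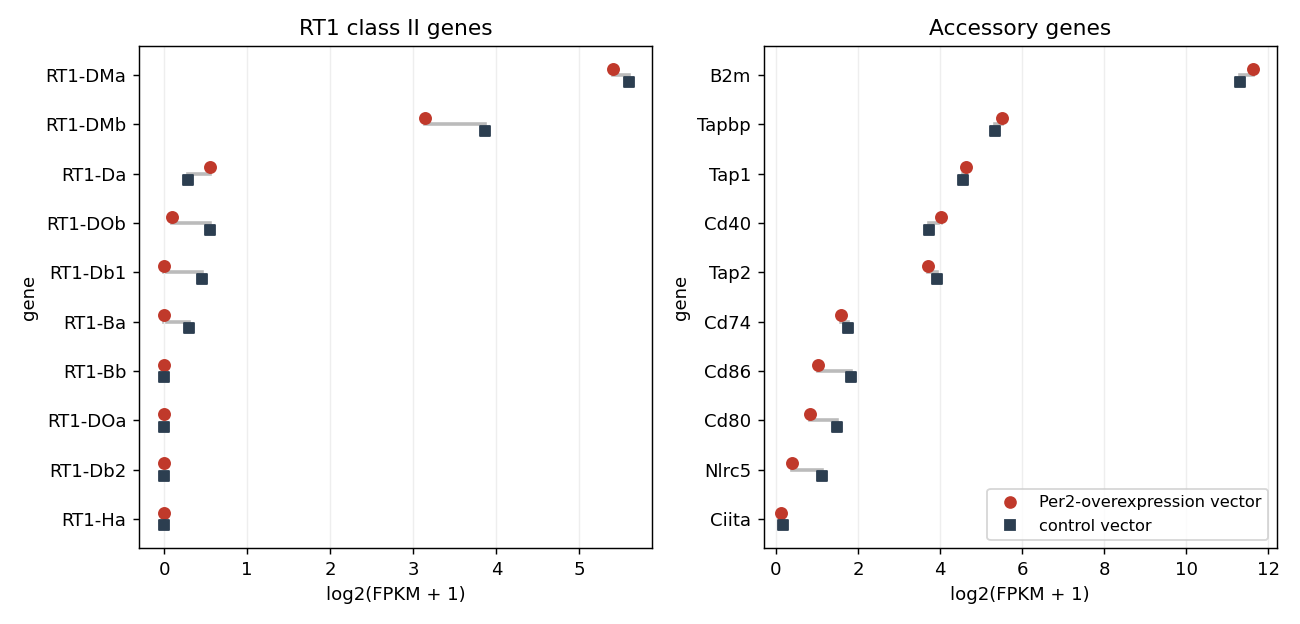
Levels as log2(FPKM + 1) of all 10 class II genes (left panel) and all 10 accessory genes (right panel), ordered by mean. Circles are the library labelled Per2-overexpression vector and squares the library labelled control vector. RT1-DMa and RT1-DMb stand apart from the other 8 class II genes, which lie under 0.5 FPKM, and B2m stands above all other accessory genes.

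Receptors and ligands of T cell help were low except Cd40. Cd80 and Cd86 are the ligands of CD28 and CTLA-4 that license T cell activation. Cd86 had 1.03 FPKM in the overexpression-labelled library and 2.58 FPKM in the control-labelled library (log2 ratio -0.82), and Cd80 had 0.778 FPKM under the overexpression label and 1.79 FPKM under the control label (-0.65). Both were lower in the overexpression-labelled library and within 2-fold on FPKM + 1. The deposited values were 2.51-fold (Cd86) and 2.29-fold (Cd80) higher in the control-labelled library, at levels near the filter. Cd80 reached the mean of 1 FPKM through the control-labelled library alone. With a pseudocount of 0.1 they passed the limit, at -1.25 for Cd86 and -1.10 for Cd80. With the length trend removed the values were -0.65 for Cd86 and -0.39 for Cd80. Cd40, the receptor through which T cells activate antigen-presenting cells, had 15.4 FPKM in the overexpression-labelled library and 12.2 FPKM in the control-labelled library (0.31). Its log2 ratio with the length trend removed was 0.55. Over all accessory genes, 8 of 10 were compared, 4 above and 4 below a log2 ratio of 0. Their median was -0.05, which is 0.13 above that of all rows. After centring the median was 0.12, also 0.12 above that of all rows. After rescaling to TPM, with 9 compared, it was -0.34, only 0.03 above. With the length trend removed it was -0.04, which is 0.03 below that of all rows.

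Among other ligands for T cells, 8 of 12 in the table were compared and none (0 of 8) was past 2-fold in either direction, with a median of -0.12. Of all rows, 8.12% were past 2-fold, with a median of -0.18. The largest differences were those of Cd83, a marker of activated antigen-presenting cells (9.14 FPKM in the overexpression-labelled library and 15.0 FPKM in the control-labelled library, -0.66), and Cd274, the checkpoint ligand PD-L1 (7.39 FPKM under the overexpression label and 11.97 FPKM under the control label, -0.63). Lgals9, galectin-9, had 30.9 FPKM in the overexpression-labelled library and 21.7 FPKM in the control-labelled library (0.49), and Icam1, the adhesion molecule that binds LFA-1, had 71.9 FPKM under the overexpression label and 53.3 FPKM under the control label (0.43). Of the T cell markers, Cd3d, Cd3e and Cd3g were at 0 in both libraries. Cd4, which rat macrophages also carry, had 2.56 FPKM in the overexpression-labelled library and 24.9 FPKM in the control-labelled library (-2.86). Cd8a had 2.81 FPKM under the overexpression label and 16.0 FPKM under the control label (-2.16). Cd8b had 5.12 FPKM in the overexpression-labelled library and 11.7 FPKM in the control-labelled library (-1.05). These 3 genes of the T cell list, the only ones compared, were all past 2-fold lower, against 5.93% of all rows. Cd2 and Cd5 stayed under 0.3 FPKM in both libraries. Which cells carried Cd4, Cd8a and Cd8b was not tested.

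Upstream of class I, the genes of peptide supply lay on both sides of 0. The 15 genes of peptide supply and loading were all compared, 6 above and 9 below a log2 ratio of 0, with a median of -0.14. None (0 of 15) was past 2-fold, against 8.12% of all rows. The split around 0 is near the 64.1% of all rows below 0. Once adjusted for length, which also moved the median of all rows from -0.18 to -0.0059, 9 of the 14 with a length lay above 0. Psmb8, Psmb9 and Psmb10 are the catalytic subunits of the immunoproteasome and Psme1 and Psme2 form its PA28 activator, and all 5 had log2 ratios between 0.41 and 0.64. Psme2 had 155 FPKM in the overexpression-labelled library and 98.9 FPKM in the control-labelled library (0.64), and Psmb10 had 86.3 FPKM under the overexpression label and 56.7 FPKM under the control label (0.60). Psmb8 had 145 FPKM in the overexpression-labelled library and 103 FPKM in the control-labelled library (0.49). These are short transcripts, and with the length trend removed the 5 values were 0.43 for Psmb8, 0.39 for Psmb10, 0.26 for Psmb9, 0.24 for Psme2 and 0.09 for Psme1. The 5 were described together after their values were seen.

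Of the other genes of that list, Lnpep, an endosomal aminopeptidase, was the 1 with a log2 ratio above 0 (0.50), and 9 lay below. That split changed with the length trend removed, when Lnpep was at 0.98. Blmh (0.08), Psme3 (0.04) and Erap1 then also lay above 0, and 5 lay below, among them Tpp2 (-0.35) and Pdia3 (-0.30). Nrdc had no matched length. Nrdc, which encodes nardilysin, had 13.1 FPKM in the overexpression-labelled library and 26.2 FPKM in the control-labelled library (-0.94), and Tpp2, tripeptidyl peptidase II, had 12.0002 FPKM under the overexpression label and 20.7 FPKM under the control label (-0.74). Erap1, which trims peptides in the endoplasmic reticulum, had 26.4 FPKM in the overexpression-labelled library and 35.2 FPKM in the control-labelled library (-0.40), and was at 0.03 with the length trend removed. Pdia3, a thiol oxidoreductase of the loading complex, had 301 FPKM in the overexpression-labelled library and 427 FPKM in the control-labelled library (-0.50). Calr, calreticulin, had 576 FPKM under the overexpression label and 635 FPKM under the control label (-0.14).

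Of the 9 endosomal genes of class II processing in the table, 7 lay below a log2 ratio of 0 and 2 above, none (0 of 9) past 2-fold, with a median of -0.32. Of all rows, 64.1% lay below 0 and 8.12% were past 2-fold, with a median of -0.18. Ctss encodes cathepsin S, which cuts the invariant chain, and had 342 FPKM in the overexpression-labelled library and 567 FPKM in the control-labelled library (-0.73, and -0.91 with the length trend removed). Ctsb, cathepsin B, had 1540 FPKM in the overexpression-labelled library and 2385 FPKM in the control-labelled library (-0.63), and Lgmn, the asparaginyl endopeptidase legumain, had 476 FPKM under the overexpression label and 702 FPKM under the control label (-0.56). Ifi30, the thiol reductase GILT, had 194 FPKM in the overexpression-labelled library and 245 FPKM in the control-labelled library (-0.33). These proteases serve lysosomal breakdown in general, and they were far more abundant than the class II chains.

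The transcription factors of MHC genes were compared for 12 of 13 members. None (0 of 12) was past 2-fold, against 8.12% of all rows. Of the 12, 4 lay above and 8 below a log2 ratio of 0, with a median of -0.15. That split too is near the 64.1% of all rows below 0. Adjusted for length, 9 lay above and 3 below, where the median of all rows was -0.0059 instead of -0.18. Irf2 (5.35 FPKM in the overexpression-labelled library and 11.3 FPKM in the control-labelled library, -0.95) and Irf8 (3.13 FPKM under the overexpression label and 6.78 FPKM under the control label, -0.91), interferon regulatory factors, were the lowest. Of the RFX complex, which binds class I and class II promoters, Rfxap had 7.44 FPKM in the overexpression-labelled library and 10.4 FPKM in the control-labelled library (-0.44), whereas Rfxank had 12.7 FPKM under the overexpression label and 9.55 FPKM under the control label (0.38). Rfx5 had 3.29 FPKM in the overexpression-labelled library and 4.07 FPKM in the control-labelled library (-0.24).

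Genes of interferon-gamma signalling, which induces both classes, lay on both sides of 0. Of 8 such genes compared, 2 were above and 6 below a log2 ratio of 0, with a median of -0.33, beside 64.1% of all rows below 0. Of the 8, 1 was past 2-fold higher and 1 past 2-fold lower, against 2.19% and 5.93% of all rows. Adjusted for length, 4 lay above and 4 below, with a median of -0.08, where that of all rows was -0.0059. Socs1, an inhibitor of JAK kinases, was at least 2-fold higher, with 23.7 FPKM in the overexpression-labelled library and 10.1 FPKM in the control-labelled library (1.16). Its relative Socs3 was at least 2-fold lower, with 12.5 FPKM under the overexpression label and 28.3 FPKM under the control label (-1.12), though not with the length trend removed (-0.94). Jak1, a kinase of the receptor, had 19.2 FPKM in the overexpression-labelled library and 37.7 FPKM in the control-labelled library (-0.94), and Ptpn2, a phosphatase that restrains the pathway, had 16.8 FPKM under the overexpression label and 26.9 FPKM under the control label (-0.65).

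Of 14 interferon-inducible genes compared, 9 were above and 5 below a log2 ratio of 0, 2 were at least 2-fold higher, none (0 of 14) at least 2-fold lower, and the median was 0.20. Of all rows, 35.9% lay above 0 and 2.19% were past 2-fold higher. Oas1a, an antiviral oligoadenylate synthetase, had 32.7 FPKM in the overexpression-labelled library and 13.5 FPKM in the control-labelled library (1.21). Isg15, a ubiquitin-like modifier, had 121 FPKM under the overexpression label and 53.0 FPKM under the control label (1.18), but 0.64 with the length trend removed. Cxcl11 (8.38 FPKM in the overexpression-labelled library and 4.02 FPKM in the control-labelled library, 0.90) and Cxcl10 (49.8 FPKM under the overexpression label and 27.4 FPKM under the control label, 0.84), chemokines for T cells, were within 2-fold on FPKM + 1, although the deposited values of Cxcl11 differed 2.08-fold. With the length trend removed, 10 of 13 genes with a length lay above 0, with a median of 0.43, beside -0.0059 for all rows.

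**Figure D4:**
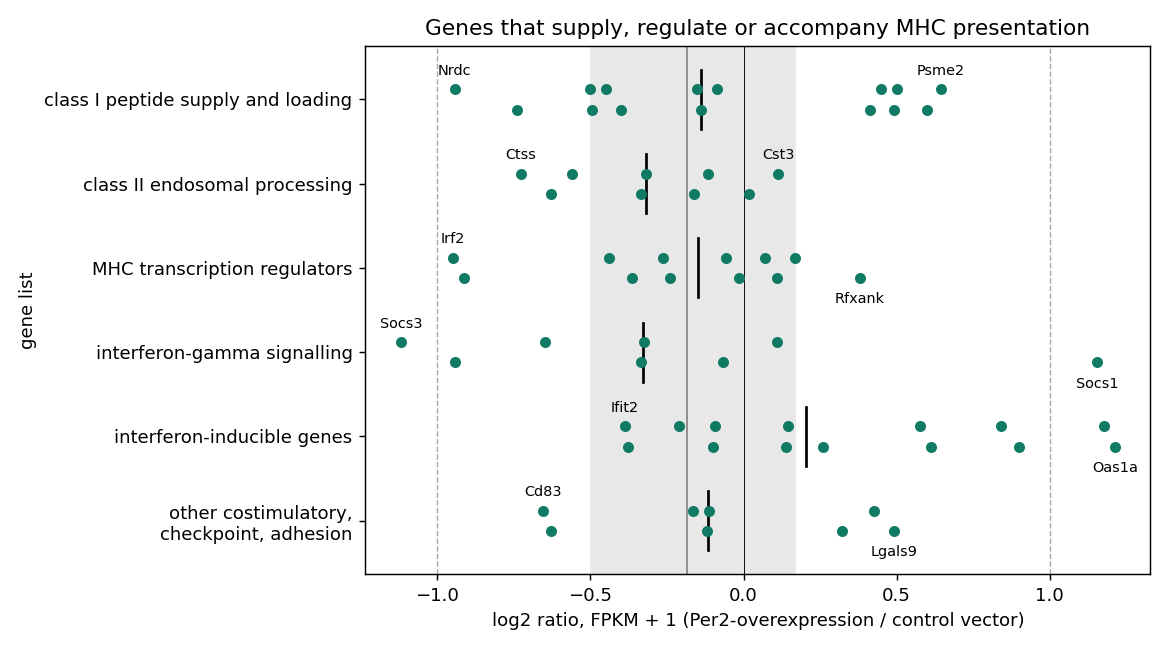
Log2 ratios on FPKM + 1 (horizontal axis) of the compared genes of 6 lists, 1 point per gene, with list medians as black bars and the lowest and highest gene named. The grey band spans the quartiles of all 12369 rows compared, the grey line is their median, and dashed lines mark 2-fold. Of the 6 medians, the interferon-inducible one is above 0 (0.20) and the other 5 are below 0, 3 of which turned above 0 after centring. Socs1, Oas1a and Isg15 lie past the upper dashed line, and Socs3 past the lower.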

How the data were processed

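The authors deposited a table of FPKM values with 1 column per library. The submitters' processing notes name HISAT2, StringTie, DESeq2, edgeR and the rat build Rnor_6.0, with neither roles nor versions. Read filters and the treatment of reads with several matches were not given in the sources used here. Per the labels' protocols, no step marks the strand.

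Columns were matched to samples by library name. Depth is unknown: among 1286 rows above 0 and below 0.3 FPKM in both libraries, at most 6 shared a ratio between the libraries (to 3 decimals), so no step of 1 read was found. With 1 library per group, a 2-fold rule on FPKM + 1 (mean of at least 1 FPKM) replaced a test. Named were all RT1 genes over the filter, all class II and accessory genes, and up to 4 genes of each pathway list with the largest absolute log2 ratio. The other genes named were added after their values were seen. Members and lists were chosen with earlier results of these data known.

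Length-adjusted values are residuals from a lowess fit (span 0.3, statsmodels 0.14.6) of the log2 ratio on log2 transcript length. Lengths were those of the longest coding transcript in mouse (GENCODE M21), matched by symbol and found for 82.0% of rows compared and for 10 of 10 accessory genes but for 0 RT1 genes. The fit also recentres the ratios (median -0.0059). The ratio and residual steps were tested on simulated data. Analyses used Python 3.11.15 and pandas 2.3.3.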

Additional observations from a re-analysis of the deposited data

How the results depend on the processing

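No paired analysis was possible because each group held 1 library, and for the same reason no replicate could be left out. Of 192 member log2 ratios under an alternative, 177 kept their sign and their side of 2-fold, 11 that were within 2-fold changed sign, 3 passed 2-fold and 1 no longer did. The 177 include ratios that could not change. Another filter leaves the ratio of a member as it is, and so does summing rows that share a symbol, which no member does. Members at least 2-fold higher numbered 1 instead of 2 with a pseudocount of 5 or a mean of at least 5 FPKM. Members at least 2-fold lower numbered 2 instead of 0 with a pseudocount of 0.1 (Cd80 and Cd86) and 1 after rescaling to TPM (Cd86, -1.06). All rows at least 2-fold higher numbered 413 with a pseudocount of 0.1, 120 with 5, 557 after centring and 137 with the length trend removed, instead of 271. Those at least 2-fold lower numbered 1304, 164, 1509 after rescaling to TPM, 366 under the stricter filter (mean of 5 FPKM) and 243 with the length trend removed, instead of 733.

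Medians and sums near 0 changed sign. The class I median was -0.15 after rescaling to TPM, and the log2 ratio of the class I sum was 0.19 after centring and 0.17 without RT1-A2. The accessory median of -0.05 became 0.17 when only rows averaging 5 FPKM or more were kept, and 0.12 after centring. After centring and with the length trend removed, medians were 0.075 and 0.062 for peptide supply, 0.044 and 0.12 for transcription regulators and 0.065 and 0.035 for other T cell ligands. The causes were not tested, beyond what each setting does by construction. The class II median and sum and the difference between the classes kept their sign under each alternative run. For the difference, rescaling and centring could hardly have changed it, since they shift both classes nearly alike. Length adjustment of RT1 genes was not run, since no length was matched. The unknown depth and the lack of replicates limit every low value, RT1-S2, Nlrc5 and the class II chains first.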
